A study of Mus musculus with 8 samples.

Results

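The proteasome subunit genes were followed in mouse embryos at the 1-cell and the 2-cell stage. They were chosen by symbol alone, as every gene named Psma, Psmb, Psmc or Psmd followed by a number. The rule gave 38 genes of the 21553 with a value in the deposited tables. The annotation holds 39 such symbols, and Psmb9 was not analysed here. By known role they were 7 alpha subunits of the core, 7 standard beta subunits of the core, 9 base subunits, 8 lid subunits, 3 chaperones that assemble the base, 2 immunoproteasome beta subunits and 2 tissue-specific core subunits.

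Whole embryos of B6CBA F1 crosses were all injected as 1-cell embryos with mRNA. The control received mCherry, a fluorescent protein, and the others received Snrpb, Snrpd2, or Snrpb and Snrpd2 in combination ("both" below). Both genes code for members of the Sm ring of spliceosomal small nuclear ribonucleoproteins. RNA of the 1-cell stage was taken 5 h later and RNA of the 2-cell stage 24 h later, so no group was free of injection. Each of the 8 conditions was 1 library from a pool of 40 embryos gathered over 3 independent experiments, and no condition had a replicate library. Libraries were made from polyadenylated RNA, and total RNA was not measured. P-values below therefore do not measure a spread of replicates. For the stage they measure how far the stage change differed between injections. For the injection terms over both stages, the 2 stages stood in for replicates. Within a stage, the 3 Sm libraries did. Every pool held 40 embryos, but values are relative to the library, so less of a gene's RNA and more of other RNA cannot be told apart. For cells other than the embryo's own, neither can fewer cells and less RNA per cell.

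The proteasome is the protease of the cytosol and nucleus that degrades proteins tagged with ubiquitin. Its core is a barrel of stacked rings, in which outer alpha rings gate the entry and inner beta rings carry the cutting sites. A regulatory particle caps the barrel, with a base of ATPases that unfold and thread the substrate and a lid that removes its ubiquitin chain. In immune cells and under interferon the catalytic beta subunits Psmb5, Psmb6 and Psmb7 give way to Psmb8, Psmb9 and Psmb10 respectively, which changes the peptides made. In the embryo the proteasome takes part in clearing maternal proteins as control passes from maternal to embryonic transcripts.

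Promoters are shown for the genes on which the results turn. RefSeq sequences of build GRCm38.p6 were matched by symbol and gave 33 promoters of 31 of the 38 genes. The first pair below belongs to Psma7 (chr2:180042465-180042714, minus strand) and Psma2 (chr13:14612992-14613241, plus strand), the alpha subunit genes with the largest falls between the stages. The other pair belongs to the immunoproteasome genes Psmb8 (chr17:34197945-34198194, plus strand) and Psmb10 (chr8:105938393-105938642, minus strand). Each run holds the 250 bases before the start site, 5′ to 3′, with CCAAT or the gamma-interferon site core TTCNNNGAA in capitals.
Psma7: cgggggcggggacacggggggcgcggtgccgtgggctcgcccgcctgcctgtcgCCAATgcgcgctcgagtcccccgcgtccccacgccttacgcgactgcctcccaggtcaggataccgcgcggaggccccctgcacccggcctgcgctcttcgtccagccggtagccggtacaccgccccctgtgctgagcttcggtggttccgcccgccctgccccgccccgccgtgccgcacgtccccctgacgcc
Psma2: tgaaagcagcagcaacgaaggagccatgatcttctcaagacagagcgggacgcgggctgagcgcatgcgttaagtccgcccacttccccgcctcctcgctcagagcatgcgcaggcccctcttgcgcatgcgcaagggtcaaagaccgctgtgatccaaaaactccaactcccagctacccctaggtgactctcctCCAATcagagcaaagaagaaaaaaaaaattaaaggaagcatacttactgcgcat
Psmb8: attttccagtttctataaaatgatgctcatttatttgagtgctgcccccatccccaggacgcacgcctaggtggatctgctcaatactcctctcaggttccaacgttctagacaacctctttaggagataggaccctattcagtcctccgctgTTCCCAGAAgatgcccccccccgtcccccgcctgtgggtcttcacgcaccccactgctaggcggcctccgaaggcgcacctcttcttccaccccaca
Psmb10: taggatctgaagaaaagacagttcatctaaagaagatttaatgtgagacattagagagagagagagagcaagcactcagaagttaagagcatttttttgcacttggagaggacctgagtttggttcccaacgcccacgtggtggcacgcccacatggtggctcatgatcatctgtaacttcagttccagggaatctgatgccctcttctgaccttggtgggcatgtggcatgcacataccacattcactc
The capitals begin at position −196 from the start site in Psma7, −54 in Psma2 and −97 in Psmb8, and Psmb10 held none of the motifs searched. The Psma7 stretch was 77.2% G and C, against 54.0% for Psma2, 55.6% for Psmb8 and 46.8% for Psmb10.

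Nfe2l1, a transcription factor that raises proteasome genes when the proteasome is inhibited, binds antioxidant response elements. The element's core TGACNNNGC was searched on both strands of windows from 250 bases before to 50 bases after each start site. It was found in 5 of the 33 proteasome promoters (15.15%) and in 12.39% of all 32851 promoters of that length. The genes were Psmb5, Psmb6, Psmc6, Psmd9 and Psmd12. A promoter with the core is shown from each of 3 classes, with 20 bases on either side and the core, or its reverse complement in Psmc6, in capitals. They are the standard beta gene Psmb5 (chr14:54618014-54618062, minus strand), the base gene Psmc6 (chr14:45329577-45329625, plus strand) and the chaperone gene Psmd9 (chr5:123228139-123228187, plus strand).
Psmb5: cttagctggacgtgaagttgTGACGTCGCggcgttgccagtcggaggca
Psmc6: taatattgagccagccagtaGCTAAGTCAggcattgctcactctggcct
Psmd9: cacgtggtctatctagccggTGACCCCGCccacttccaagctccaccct
CCAAT stood in 12 of the 33 proteasome promoters (36.36%) and in 37.41% of all promoters. The interferon regulatory factor core GAAANNGAA stood in 5 (15.15%, against 8.56% of all), namely those of Psmb3, Psmb4, Psmc2, Psmd4 and Psmd9. The gamma-interferon site core, a palindrome that reads the same on both strands, stood in 2 (6.06%, against 8.3% of all), those of Psmb8 and Psmd2. CCAAT and the 3 cores do not contain one another, and a match describes letters only. The 5 genes with the antioxidant element core did not move alike between the stages. Psmd9, Psmc6 and Psmd12 fell, while Psmb5 and Psmb6 did not pass the test.

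The libraries held 39492734 to 59979046 counted reads. Levels are given in cRPKM, the deposited RPKM value. It is normalized for library depth and for a length per gene that can fall well short of the transcript. The injected Snrpb reached 43850 cRPKM in the 1-cell Snrpb library and 11913 in the 1-cell library with both, against 7.96 in the 1-cell mCherry library. It was still 1704 and 876 against 17.4 at the 2-cell stage. Snrpd2 likewise stood at 17926 and 9142 against 1.89 cRPKM at the 1-cell stage, and at 5240 and 4726 against 10.6 at the 2-cell stage. Oocyte and zygote markers summed to 7024 to 7764 cRPKM at the 1-cell stage and 5591 to 6599 at the 2-cell stage. The 1-cell mCherry library stood apart in its most abundant gene, Ccdc82, which took 10.8% of its reads against 6.09% to 7.44% in the other 1-cell libraries, and stage calls that rest on it are given with and without it.

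Most genes of the alpha ring, the base and the base chaperones were lower in 2-cell embryos than in 1-cell embryos. Beta and lid genes went both ways. Of the measured immunoproteasome genes, Psmb10 was higher. Psmb8 was also higher, but on few reads and with a call that several alternatives lost. All 38 genes passed the filter on low counts. With edgeR's quasi-likelihood test, adjusted over 16264 genes with injection as a covariate, 25 were lower at the 2-cell stage, 6 were higher and 7 did not pass an adjusted p of 0.05. Over all genes tested 32.0% were lower and 38.1% higher. The median change of the 38 genes was −1.03 on the log2 scale, and that of all genes was 0.15. For 21 of them every 2-cell library lay below every 1-cell library in cRPKM (24.8% of all genes), and for 7 every 2-cell library lay above (42.8% of all genes). Within single injections, 27 genes were lower at the 2-cell stage under all 4, 7 were higher under all 4, and 4 were mixed. That count was not made over all genes, so it has no background share. Without the 1-cell mCherry library 25 were lower and 4 higher, beside 5117 lower and 5753 higher of all 16777 genes tested. The reads of the 38 genes made up 0.329% to 0.395% of each 1-cell library and 0.169% to 0.196% of each 2-cell library.

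**Figure D1:**
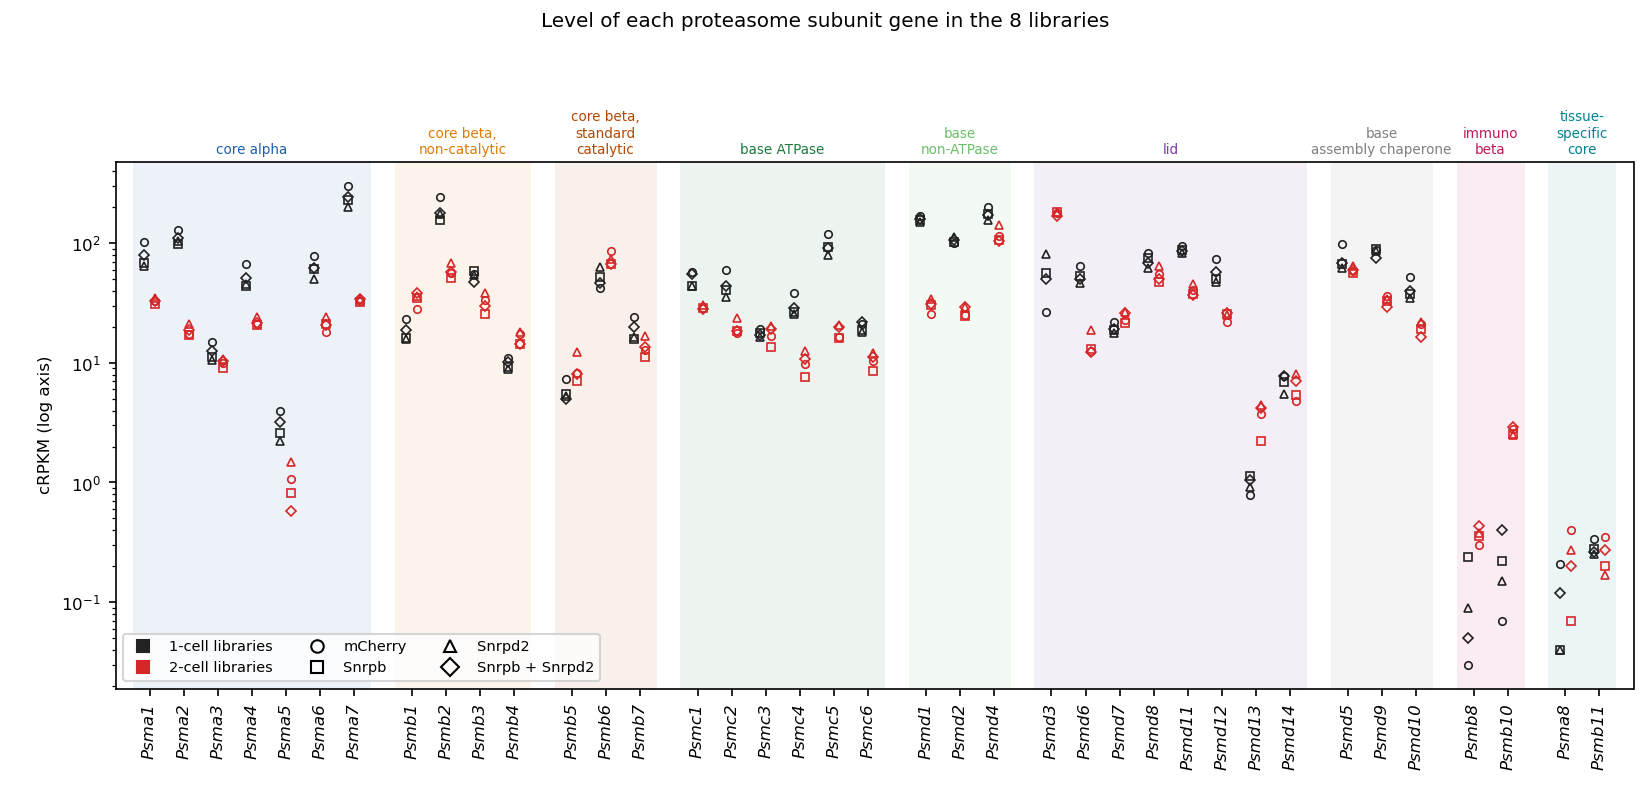
Level of each of the 38 proteasome subunit genes in cRPKM (log axis) in the 4 1-cell libraries (black) and the 4 2-cell libraries (red), with a symbol for each injection and the genes grouped by subunit class. The black symbols of Psma7 lie between 203 and 302 cRPKM and its red symbols between 32.4 and 34.4, while Psmd3 and Psmb10 run the other way.

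All 7 genes of the alpha ring fell, by a median of 1.82 on the log2 scale, and for 6 of the 7 the stages did not overlap in cRPKM. Their summed level was 566 ± 95.7 cRPKM at the 1-cell stage and 139 ± 8.72 at the 2-cell stage (mean ± SD, n = 4 libraries). That sum was 5.24-fold lower at the 2-cell stage under mCherry, 3.92-fold under Snrpb, 3.18-fold under Snrpd2 and 4.03-fold under both.

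Psma7 (ENSMUSG00000027566) had the highest 1-cell level of the 38 genes. It stood at 302, 232, 203 and 244 cRPKM in the 1-cell mCherry, Snrpb, Snrpd2 and both libraries, and at 32.7, 32.4, 34.4 and 34.4 in the 2-cell libraries in the same order. The lowest 1-cell library was far above the highest 2-cell library, and the 2-cell libraries lay close together. The fall was 8.68-fold (log2 change −3.12 ± 0.13 SE, adjusted p = 3.18e-08 with edgeR). By mean cRPKM the gene went from position 267 of 21553 genes to position 2146. Psma2 fell 7.13-fold (log2 change −2.83), and its 1-cell libraries ran from 98.96 to 129 cRPKM against 17.03 to 21.1. Psma6, Psma1 and Psma4 fell by 1.82, 1.49 and 1.49 on the log2 scale, and Psma4 shares 31.5% of its 50-base words with transcripts of other genes, mostly Gm6542. Psma3 moved least, by −0.55 (adjusted p = 0.0036), and its stages overlapped, since the highest 2-cell library had 10.9 cRPKM and the lowest 1-cell library 10.5. That call was lost when library totals replaced TMM scaling (log2 change −0.29, adjusted p = 0.0877), and 22.0% of its 50-base words occur in other genes, chiefly Gm13835. Psma5 fell by 1.87, from 37 to 67 reads a library to 7 to 20, but 55.4% of its 50-base words occur in transcripts of other genes (mostly the copies Gm8394 and Gm12989), and the length behind its cRPKM was 0.305 kb of a transcript of 1239 bases. Its level is therefore uncertain.

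Genes of the beta ring went both ways. Of the 7 standard ones 3 fell, 2 rose and 2 did not pass the test, and the median change was 0.28. Their summed level was 347 ± 41.6 cRPKM at the 1-cell stage and 238 ± 22.2 at the 2-cell stage, and Psmb2 alone averaged 189 and then 58.5. Psmb2, a beta subunit without a cutting site, stood at 244, 157, 175 and 179 cRPKM in the 1-cell libraries (mCherry, Snrpb, Snrpd2, both) and at 56.7, 51.7, 68.0 and 57.7 in the 2-cell libraries. The stages were well separated, and the gene fell 3.83-fold (log2 change −1.94 ± 0.13 SE, edgeR adjusted p = 5.79e-07). Psmb1, also without a cutting site, stood at 23.5, 16.3, 15.8 and 19.0 cRPKM and then at 28.5, 35.1, 36.2 and 38.4. Every 2-cell library was higher, and the rise was 1.56-fold (log2 change 0.64 ± 0.16 SE, edgeR adjusted p = 0.00456), with the mCherry pair differing least (0.07). Psmb4 rose by 0.46 on the log2 scale (adjusted p = 0.0149), a call that was lost when 1 of 4 libraries was left out (adjusted p of 0.0548 to 0.0806), namely 1-cell mCherry, 1-cell Snrpd2, 1-cell both and 2-cell Snrpd2. Psmb3 fell by 1.02, with 55.8% of its 50-base words shared with other genes and a length of 0.188 kb behind its cRPKM.

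None of the 3 catalytic beta genes moved by as much as 1 on the log2 scale. Psmb5, which carries the chymotrypsin-like site, stood at 7.33, 5.46, 5.26 and 5.04 cRPKM in the 1-cell libraries (mCherry, Snrpb, Snrpd2, both) and at 8.24, 7.08, 12.4 and 8.13 in the 2-cell libraries. The stages overlapped, and the change did not pass the test (log2 change 0.36 ± 0.21 SE, edgeR adjusted p = 0.147). Of its 50-base words 57.1% occur in other transcripts, most in Gm3375. Psmb6, which carries the caspase-like site, stood at 42.5, 52.2, 63.2 and 46.2 cRPKM and then at 86.3, 67.6, 74.5 and 67.5. In cRPKM every 2-cell library was higher, but after TMM scaling the log2 change was 0.28 ± 0.16 SE (edgeR adjusted p = 0.129), with the Snrpd2 pair at −0.08. Library totals gave 0.62 (adjusted p = 0.0259) for Psmb5 and 0.54 (adjusted p = 0.00692) for Psmb6, so both calls depend on the scaling. Over all alternatives the adjusted p ran from 0.0111 to 0.624 for Psmb5 and from 0.00455 to 0.729 for Psmb6. Psmb7, which carries the trypsin-like site, stood at 24.2, 15.8, 16.5 and 20.02 cRPKM and then at 12.9, 11.1, 16.7 and 13.5. It fell by 0.75 on the log2 scale (edgeR adjusted p = 0.00166), although the 2-cell Snrpd2 library overlapped the 1-cell libraries. Its transcript shares 28.1% of its 50-base words with Nek6.

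Of the 9 base genes 8 fell, with a median change of −1.44. Their summed level went from 700.2 ± 60.03 to 280 ± 32.1 cRPKM, and for 8 of the 9 the stages did not overlap. Psmd4, a ubiquitin receptor of the base, had the highest mean level of the class. It stood at 200, 176, 158 and 171 cRPKM in the 1-cell libraries (mCherry, Snrpb, Snrpd2, both) and at 115, 106, 143 and 106 in the 2-cell libraries. All 2-cell libraries were lower, but the Snrpd2 library only narrowly, and the fall was 1.81-fold (log2 change −0.85 ± 0.13 SE, edgeR adjusted p = 0.000166).

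Psmd1, a scaffold subunit of the base, fell most. It stood at 168, 158, 151 and 160 cRPKM at the 1-cell stage and at 25.7, 30.5, 34.0 and 30.9 at the 2-cell stage, with a wide gap between the stages. The fall was 6.32-fold (log2 change −2.66 ± 0.12 SE, edgeR adjusted p = 4.52e-08). Its partner scaffold Psmd2, with 26.4% of its 50-base words in other genes (mostly Gm5422), fell by 2.23 on the log2 scale. The 6 ATPases form a single ring in the assembled base, and 5 of their genes fell, by unequal amounts. Psmc5 fell by 2.64, Psmc4 by 1.81, Psmc2 by 1.44, Psmc6 by 1.18 and Psmc1, with 17.6% of its 50-base words in other genes, by 1.03. Psmc3 changed by −0.28 (edgeR adjusted p = 0.108) and passed the test only when a Snrpd2 library was left out (−0.42 without the 1-cell one, adjusted p = 0.0363, and −0.42 without the 2-cell one, adjusted p = 0.0352).

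Lid genes were split. Of 8, 4 fell, 2 rose and 2 did not pass the test (median change −0.54). The summed level was 353 ± 14.6 cRPKM at the 1-cell stage and 348 ± 20.6 at the 2-cell stage, with Psmd3 in the sum. Without Psmd3 the other 7 lid genes summed to 299 ± 35.3 and 169 ± 17.5 cRPKM. Psmd3 took 7.14% to 23.7% of the lid sum at the 1-cell stage and 48.8% to 54.4% at the 2-cell stage.

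Psmd3 (ENSMUSG00000017221), a scaffold subunit of the lid, stood at 26.8, 56.9, 82.1 and 50.3 cRPKM in the 1-cell libraries (mCherry, Snrpb, Snrpd2, both) and at 179, 184, 184 and 170 in the 2-cell libraries. All 2-cell libraries were higher and close together, while the 1-cell libraries were spread, with mCherry lowest and Snrpd2 highest. The rise was 2.98-fold (log2 change 1.57 ± 0.23 SE, edgeR adjusted p = 0.000135). Without the 1-cell mCherry library the log2 change was 1.21. By mean cRPKM it went from position 1566 to position 362 of 21553 genes, and at the 2-cell stage it had the highest level of the 38 genes.

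Psmd6, another lid scaffold subunit, had the largest fall of the class. It stood at 65.0, 53.1, 46.5 and 50.5 cRPKM and then at 12.5, 13.1, 18.9 and 12.4, with no overlap (log2 change −2.19 ± 0.17 SE, edgeR adjusted p = 1.22e-06). Psmd13, also a lid scaffold subunit, was low throughout, at 0.79, 1.13, 0.91 and 1.04 cRPKM and then at 3.72, 2.22, 4.46 and 4.22. All 2-cell libraries were higher, with Snrpb lowest among them (log2 change 1.62 ± 0.27 SE, edgeR adjusted p = 0.000352), and the transcript shares 15.8% of its 50-base words with other genes, chiefly Sirt3. Psmd12, Psmd11 and Psmd8 fell by 1.46, 1.39 and 0.66, and Psmd11 shares 18.9% of its 50-base words with other genes. Psmd14, the deubiquitinase of the lid, changed by −0.42 (edgeR adjusted p = 0.0915), and was called at −0.70 without either the 1-cell or the 2-cell Snrpd2 library (adjusted p = 0.00889 and 0.00855). Psmd7, its partner, changed by 0.07 (edgeR adjusted p = 0.664). That value turned to −0.057, −0.026 and −0.055 without the 1-cell Snrpd2, 1-cell both or 2-cell Snrpd2 library, and limma on log2(cRPKM + 0.1) called it at 0.32 (adjusted p = 0.0389).

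**Figure D2:**
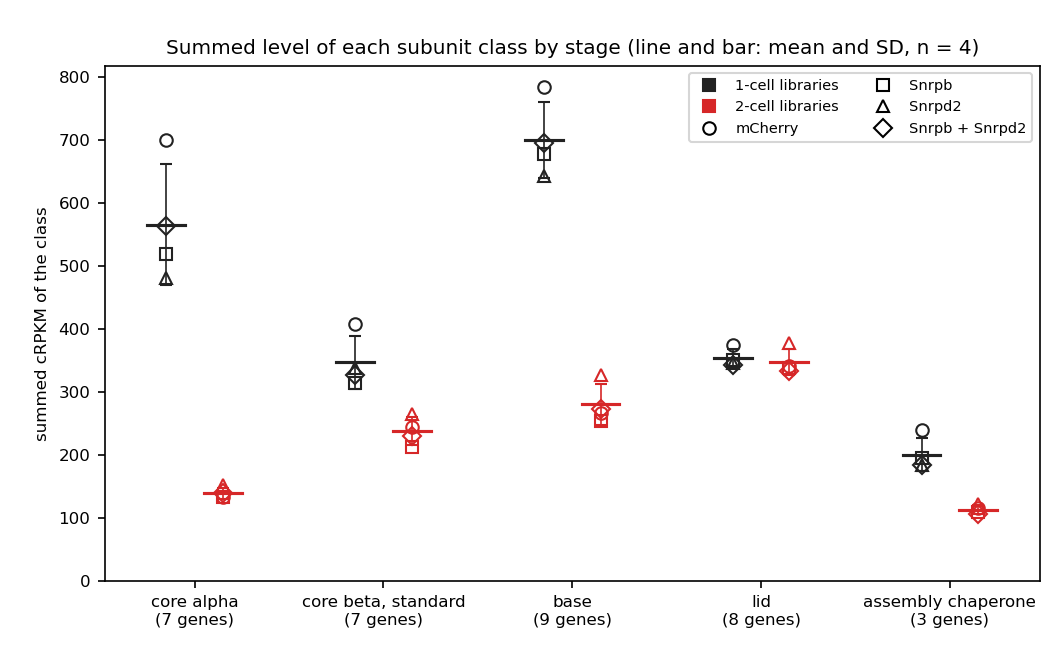
Summed cRPKM of the genes of each subunit class in every library, by stage (1-cell black, 2-cell red), with a symbol for each injection and a line and bar for the mean and SD (n = 4 libraries). The alpha sum lies between 481 and 700 cRPKM at the 1-cell stage and between 132 and 151 at the 2-cell stage, while the lid sums of the stages overlap (343 to 375 and 334 to 378).

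The standard particle was described over its 31 genes, summed per class in transcript terms. Of these (alpha, standard beta, base and lid) 22 fell, 4 rose and 5 did not pass the test, and their summed level was 1967 ± 206 cRPKM and then 1005 ± 80.6. Alpha genes took 28.6% of that sum at the 1-cell stage and 13.9% at the 2-cell stage. These shares did not overlap between the stages (26.6% to 30.9% and 13.5% to 14.3%). The base share went from 35.7% to 27.8%, the beta share from 17.6% to 23.6% and the lid share from 18.1% to 34.7%. Psmd3 alone took 7.14% to 23.7% of the lid sum at the 1-cell stage and 48.8% to 54.4% at the 2-cell stage. Without Psmd3 the lid sum went from 299 to 169 cRPKM. The 31 levels were unequal at both stages, with an SD of log2 cRPKM over the genes of 1.84 at the 1-cell stage and 1.45 at the 2-cell stage.

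The 3 base-assembly chaperones, which pair with ATPases before the base is complete and leave the finished particle, all fell. Psmd5 had the highest mean level over the 8 libraries, though Psmd9 was higher at the 1-cell stage (means of 85.3 and 74.03 cRPKM). Psmd5 stood at 98.1, 67.2, 62.2 and 68.6 cRPKM in the 1-cell libraries (mCherry, Snrpb, Snrpd2, both) and at 58.8, 56.8, 65.1 and 59.8 in the 2-cell libraries. The 2-cell Snrpd2 library overlapped the 1-cell ones, and the log2 change was −0.54 ± 0.13 SE (edgeR adjusted p = 0.00431), a call lost with library totals (−0.28, adjusted p = 0.0936). Psmd9 fell most, from 88.6, 89.9, 86.8 and 75.9 cRPKM to 36.2, 32.8, 34.3 and 29.4. No library overlapped, and the injections gave nearly equal falls (log2 change −1.62 ± 0.11 SE, edgeR adjusted p = 5.62e-07). Psmd10 fell by 1.31.

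Both measured immunoproteasome genes rested on few reads at the 1-cell stage and were higher at the 2-cell stage. Psmb10 (ENSMUSG00000031897) stood at 0.07, 0.22, 0.15 and 0.40 cRPKM in the 1-cell libraries (mCherry, Snrpb, Snrpd2, both), from 5, 16, 10 and 24 reads, and at 2.79, 2.54, 2.51 and 2.92 in the 2-cell libraries, from 145, 126, 137 and 141 reads. Every 2-cell library was higher than any 1-cell library, and the rise was 11.7-fold (log2 change 3.54 ± 0.42 SE, edgeR adjusted p = 3.34e-05). Without the 1-cell mCherry library the log2 change was 3.12 (edgeR adjusted p = 4.31e-05).

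Psmb8 stood at 0.03, 0.24, 0.09 and 0.05 cRPKM and then at 0.30, 0.36, 0.38 and 0.43, from 2, 17, 6 and 3 reads and then 15, 17, 20 and 20. In cRPKM the stages did not overlap, but the 1-cell Snrpb library held as many reads as the 2-cell Snrpb library. The log2 change of 1.79 ± 0.70 SE (edgeR adjusted p = 0.0427) was not called without the filter on low counts (adjusted p = 0.0642), nor without the 1-cell mCherry library (log2 change 1.42, adjusted p = 0.146) or any of 5 other libraries, the exceptions being the Snrpb libraries.

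Both were below the standard subunits they replace in every library, and Psmb10 less so at the 2-cell stage. Per length, Psmb10 was 0.289% to 2.00% of Psmb7 in the 1-cell libraries and 15.02% to 22.8% in the 2-cell libraries. Psmb8 was 0.409% to 4.396% of Psmb5 and then 3.07% to 5.29%. The stages did not overlap in the former ratio and did in the latter. Of 12 immune and blood markers 8 were tested, 3 were higher and 1 was lower at the 2-cell stage, and their summed level was 9.03 to 28.1 cRPKM and then 13.8 to 27.4. Ptprc, which marks blood cells, averaged 0.007 and 0.015 cRPKM, and the haemoglobin gene Hbb-bs had 0 reads in every library. The macrophage gene Lyz2 rose from a mean of 0.04 to 7.59 cRPKM. Cd52 was the marker that was lower, with a 6.89-fold fall (log2 change −2.78, edgeR adjusted p = 3.71e-05). The part of these markers in the immunoproteasome result was not tested.

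The testis subunit Psma8, which takes the place of Psma7 in spermatocytes, stood at 0.21, 0.04, 0.04 and 0.12 cRPKM and then at 0.40, 0.07, 0.27 and 0.20 (log2 change 0.99, edgeR adjusted p = 0.181). The stages overlapped, and the mCherry library was highest at each. The thymus subunit Psmb11 stood at 0.34, 0.28, 0.25 and 0.26 cRPKM and then at 0.35, 0.20, 0.17 and 0.27 (log2 change −0.49, edgeR adjusted p = 0.236), also with overlap. Neither passed the test. Of 10 spermatocyte and sperm markers 7 were tested and 4 were higher at the 2-cell stage, with summed levels of 29.7 to 35.3 cRPKM and then 113 to 139, most of it Sycp3. Of the protamine genes, which mark sperm, Prm2 averaged 3.61 and 2.78 cRPKM and Prm1 0.05 and 0.12, and the transition protein gene Tnp1 was at 0 reads in the 1-cell libraries and averaged 0.79 in the 2-cell libraries. The part of these markers in the Psma8 values was not tested.

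**Figure D3:**
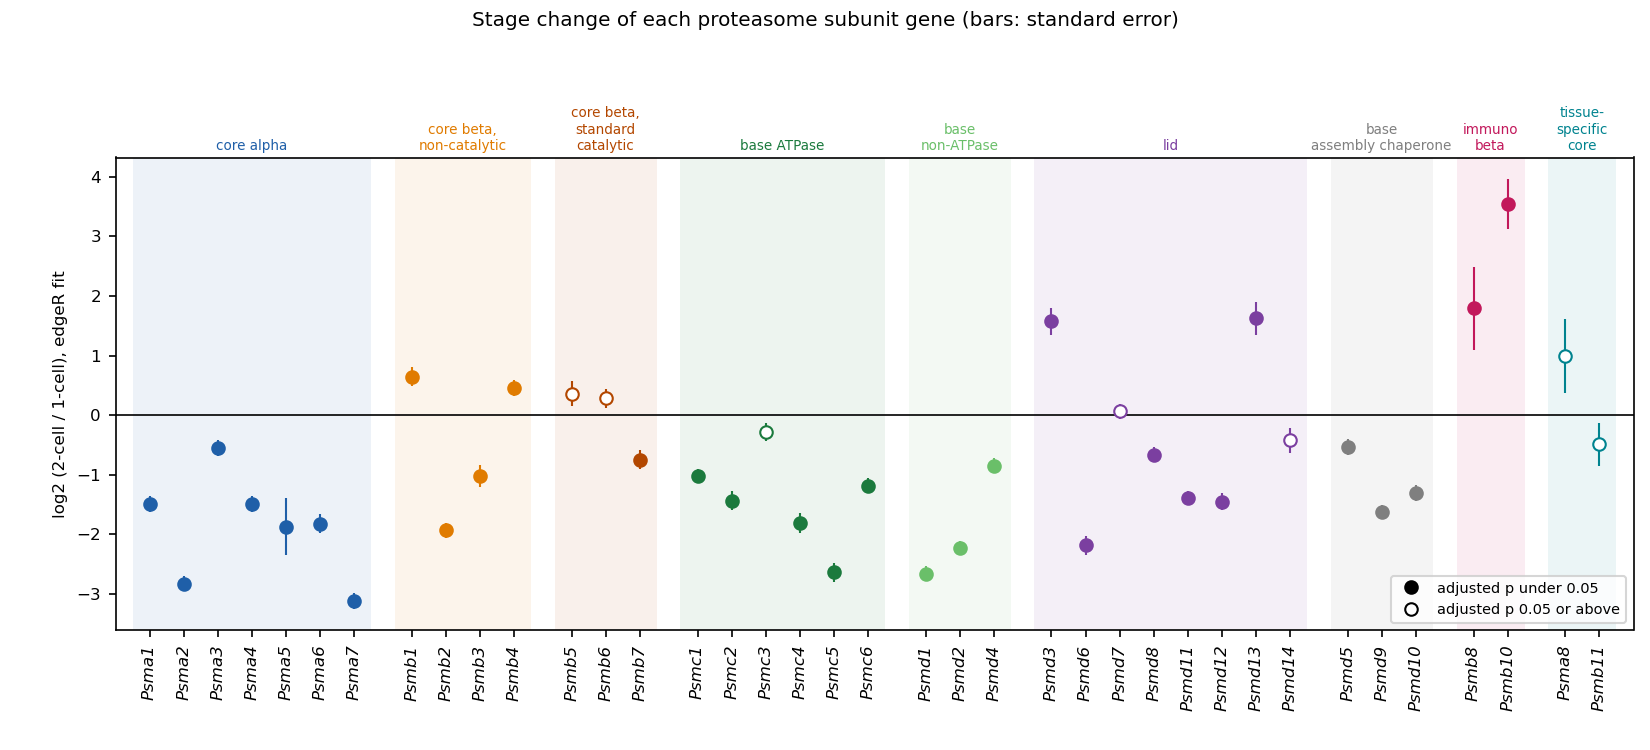
Log2 ratio of 2-cell to 1-cell libraries for each of the 38 genes in the edgeR fit, with the standard error as a bar, grouped by subunit class (filled: adjusted p under 0.05). All 7 alpha genes lie below 0, from −3.12 (Psma7) to −0.55 (Psma3), whereas beta and lid genes lie on both sides and Psmb10 reaches 3.54.

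Other genes of the pathway were taken from 8 lists of 48 genes, of which 47 had a value and 45 were tested. By stage 13 of the 45 were higher and 21 lower, where 38.1% of all genes were higher and 32.0% lower. These shares are also the background of each list below. The 2 remaining regulatory-particle subunit genes gave 1 fall, that of Adrm1, a ubiquitin receptor, from 79.2 ± 11.8 to 22.2 ± 5.90 cRPKM (log2 change −2.11). Of 5 core assembly chaperones 4 fell and 1 rose. Pomp, which matures the core, fell by 0.91, while Psmg2, a partner in alpha ring assembly, rose from 0.64 ± 0.15 to 5.84 ± 1.20 cRPKM (log2 change 2.93).

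Activators and inhibitors of the core were mixed, with 1 rise and 1 fall among the 4 tested of 6. Psme4, the activator that is abundant in testis, rose by 1.54 (edgeR adjusted p = 0.000418), and the inhibitor Psmf1 fell by 1.30. Psme3, the nuclear activator, was the most abundant at 349 ± 16.3 and 435 ± 22.0 cRPKM (log2 change 0.06, edgeR adjusted p = 0.643). The interferon-induced activator gene Psme1 stood at 0.80 ± 0.19 and 1.43 ± 0.32 cRPKM (edgeR adjusted p = 0.189), and Psme2, at 0 to 0.55 cRPKM, was not tested.

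Of 10 proteasome-bound deubiquitinases and shuttle factors 4 fell and 3 rose, with Usp14, a deubiquitinase that trims chains at the base, going from 53.5 ± 6.05 to 12.7 ± 1.45 cRPKM (log2 change −2.34). Among 5 regulators of proteasome gene expression or transport 3 fell and 1 rose, and Nfe2l1 itself stood at 29.8 ± 4.32 and 42.3 ± 5.77 cRPKM (log2 change 0.25, edgeR adjusted p = 0.14). Ubiquitin genes and the E1 enzyme gave 2 rises and 2 falls of 6. Rps27a, which encodes ubiquitin fused to a ribosomal protein and has many near-identical copies, is listed at 0 to 0.26 and 5.92 to 11.9 cRPKM and is uncertain. The p97 complex, which extracts proteins for the proteasome, gave 2 rises and 3 falls of 5. Peptide transport and MHC class I genes gave 3 rises and 3 falls of 8, and Tap1, the peptide transporter beside Psmb9, rose from 0.10 ± 0.03 to 0.88 ± 0.47 cRPKM (log2 change 2.72).

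With edgeR and limma no proteasome gene changed past the test after Sm mRNA at either stage, and with DESeq2 2 did at the 1-cell stage. With edgeR's F test of the 3 injection terms over both stages, 0 of the 38 genes were called (0.00615% of all genes, 1 of 16264), and 0 had an unadjusted p under 0.05, beside 233 of all genes. DESeq2 and limma also called 0. In these tests the stages stood in for replicates, so a change at a single stage enters the spread. Their 0 calls therefore do not speak to single stages. The 3 Sm libraries of a stage were then set against the single mCherry library of that stage, which was assumed to vary like the others. At the 1-cell stage 0 were called (0% of 16867 genes), and 13 had an unadjusted p under 0.05, of which 11 were lower and 2 higher after Sm mRNA, beside 2618 of all 16867 genes with such a p. At the 2-cell stage 0 were called (0%) and 0 had an unadjusted p under 0.05, beside 637 of all genes. The difference between these effects gave 0 calls (0%) and 11 of the 38 genes with an unadjusted p under 0.05, beside 1648 of all 16867 genes. limma called 0 in all 3 of these comparisons. DESeq2 called 0 at the 2-cell stage and 0 for the difference, but 2 at the 1-cell stage, Psmd3 (log2 change 1.27, adjusted p = 0.000194) and Psmd5 (log2 change −0.55, adjusted p = 0.0197), where it called 4.22% of all genes. Under the other alternatives the adjusted p was 0.0527 to 0.266 for Psmd3 and 0.0887 to 0.271 for Psmd5.

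At the 1-cell stage the values after Sm mRNA lay mostly below those after mCherry. The change was below 0 for 32 of the 38 genes, with a median of −0.30 on the log2 scale against 0 over all genes. By class the median was −0.42 for alpha, −0.44 for standard beta, −0.22 for base, −0.19 for lid and −0.45 for the chaperones. The 2 immunoproteasome genes gave 1.94 and rest on few reads. In cRPKM mCherry was the highest of the 4 1-cell libraries for 29 of the 38 genes (36.0% of all genes) and the lowest for 6 (25.8%), namely Psmb6, Psmb8, Psmb10, Psmd2, Psmd3 and Psmd13. At the 2-cell stage the median was 0.00, with 19 genes below 0 and 19 above. There mCherry was highest for 4 (17.9%) and lowest for 7 (27.4%), and Snrpd2 was highest for 29 (35.7%).

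All of the 1-cell differences share the mCherry library that stood apart in Ccdc82, so no value without it can be had. That library also had the lowest sum of 13 cumulus and granulosa cell markers, 23.8 cRPKM against up to 49.03 in its stage and 21.1 to 25.8 in 2-cell libraries, of immune and blood markers, 9.03 against up to 28.1, and the highest sum of oocyte and zygote markers, 7764. The oocyte and zygote markers did not move alike. Bmp15 was highest there (2197 cRPKM against 1548 to 1853 in the other 1-cell libraries), as was Ooep (590.5 against 318 to 417). Gdf9 was lowest there (426 against 515 to 746), as was Oosp1 (418 against 459 to 541). Among the cumulus markers Cyp19a1 stood at 15.5 cRPKM in the 1-cell mCherry library and 17.7 to 19.7 in the other 1-cell libraries. Tnfaip6 stood at 1.17 and 4.23 to 9.11, and Inhba at 0.93 and 2.23 to 6.58, while Amh averaged 0.01. Not all of these markers were lowest there. Kitl was highest, at 0.77 and 0.60 to 0.64, and Nr5a2 lay within the others, at 3.91 and 3.26 to 4.83. The immune marker Cd52 stood at 4.86 and 13.5 to 23.8. The part of these differences in the proteasome values was not tested.

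Psmd3 had the smallest p of the 38 genes at the 1-cell stage. Against 3133 reads in the 1-cell mCherry library, the ratio after TMM scaling was 2.27 in the Snrpb library (7159 reads, 95% exact conditional binomial interval 2.17 to 2.37), 3.14 in the Snrpd2 library (9326 reads, 3.02 to 3.27) and 1.84 in the library with both (5220 reads, 1.76 to 1.93). These intervals cover counting error only. All 3 Sm libraries were higher, and they differed among themselves by more than counting error. The log2 change was 1.27 ± 0.25 SE with an unadjusted p of 0.000329 and an adjusted p of 0.146 with edgeR. At the 2-cell stage the ratios were 1.02, 0.97 and 0.93. The difference between the stages was −1.32 on the log2 scale (edgeR adjusted p = 0.381).

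Psmd5 went the other way, with ratios of 0.73, 0.65 and 0.69 at the 1-cell stage and 0.96, 1.05 and 0.99 at the 2-cell stage (log2 change at the 1-cell stage −0.54 ± 0.13 SE, edgeR adjusted p = 0.149). Psma7 gave 0.82, 0.69 and 0.79 and then 0.98, 1.00 and 1.03. For both genes the Snrpd2 ratio was the lowest at the 1-cell stage.

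With 1 library a condition, a ratio of single libraries describes those libraries and has no replicates behind it. Such ratios were taken for genes that had 50 reads or more in 1 of the libraries compared, 35 at each stage (without Psma8, Psmb8 and Psmb10 at the 1-cell stage and without Psma5, Psma8 and Psmb8 at the 2-cell stage), and were counted when they were at least 2-fold with an interval off 1. At the 1-cell stage that held for 1 gene, Psmd3, after Snrpb (4.66% of all genes), for 1, again Psmd3, after Snrpd2 (5.16%) and for 0 after both (4.16%). At the 2-cell stage it held for 0 after Snrpb (4.37%), for 1, Psmb11, after Snrpd2 (29 against 57 reads, ratio 0.46, 4.31% of all genes) and for 0 after both (3.51%). The median ratio over the 35 genes of each stage was 0.84, 0.74 and 0.82 at the 1-cell stage for Snrpb, Snrpd2 and both, and 0.92, 1.10 and 1.012 at the 2-cell stage. The median over all genes lay between 0.96 and 1.00. The Snrpd2 library thus had the lowest median ratio at the 1-cell stage and the highest at the 2-cell stage.

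**Figure D4:**
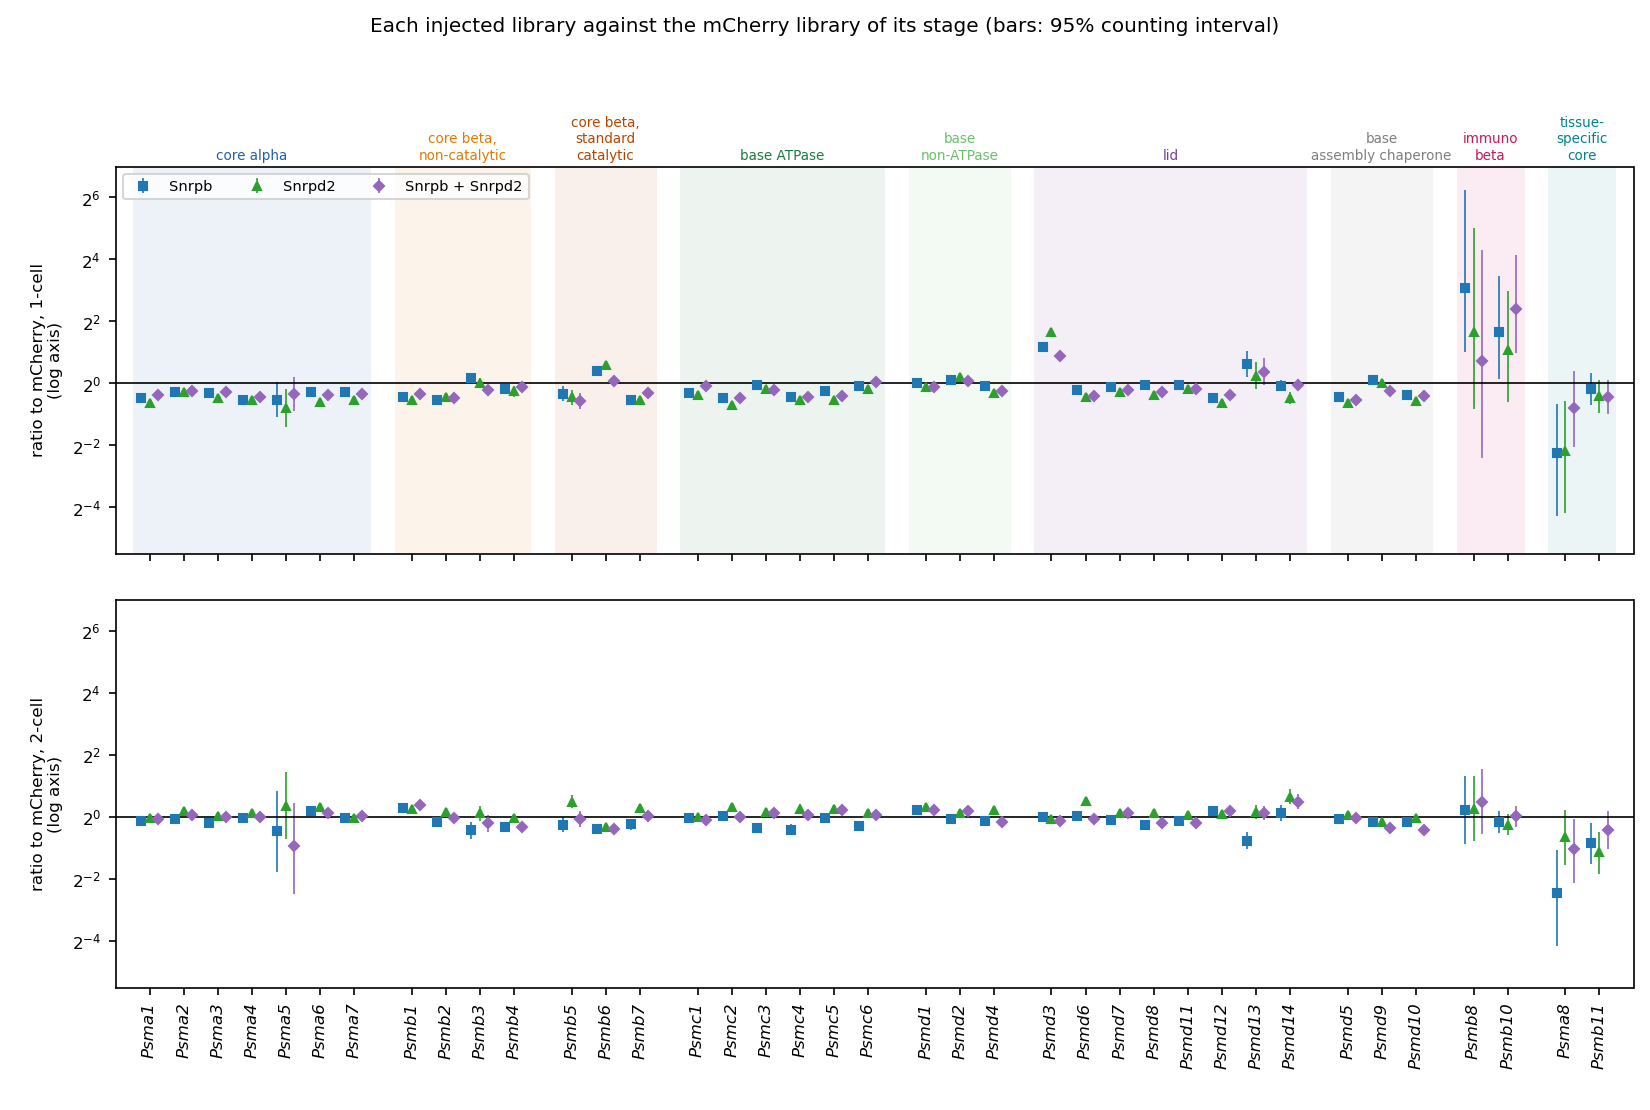
Ratio of each Sm-injected library to the mCherry library of its stage (log axis) for the 38 genes, 1-cell above and 2-cell below, with 95% counting intervals as bars. At the 1-cell stage most points lie below 1 and Psmd3 lies between 1.84 and 3.14, whereas at the 2-cell stage Psmd3 lies between 0.93 and 1.02, and the wide bars of Psmb8 and Psma8 reflect few reads.

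The median stage change was smaller in the Snrpd2 pair of libraries than in the mCherry pair for alpha, base, lid and chaperone genes. The median of standard beta genes, which go both ways, did not show this. Within injections (mCherry, Snrpb, Snrpd2, both) the median log2 change of alpha genes was −2.04, −1.82, −1.22 and −1.78, and that of base genes −1.95, −1.44, −0.90 and −1.46. For lid genes it was −0.83, −0.83, −0.01 and −0.50, and for the chaperones −1.49, −1.26, −0.98 and −1.49. The medians of standard beta genes showed no such order, at −0.03, 0.06, −0.08 and 0.28. Gene by gene, Psmb1, Psmb2, Psmb3, Psmb4, Psmb5 and Psmb7 had higher log2 changes under Snrpd2 than under mCherry. Psmb6 had a lower one (−0.08 against 0.82). The summed level of standard beta genes was 1.67-, 1.48-, 1.28- and 1.43-fold lower at the 2-cell stage, so its fall was also smallest under Snrpd2. Each of these rests on a single library at each stage and was not tested.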

How the data were processed

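Polyadenylated RNA was sequenced from 8 pools of embryos (SMARTer Stranded kit, HiSeq2500, per the labels' protocols). The authors deposited for each library whole-number read counts per gene and cRPKM, an RPKM value. Per the submitters' processing notes the build was mm9. The aligner, the gene models, the use of strand and the handling of multiply mapping reads are not stated in the labels used here, so genes with copies or overlaps are uncertain. Of 22667 Ensembl identifiers 21553 had values and 20759 had a symbol in GENCODE vM21. No column of sample values was left unused (0).

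Counts as deposited were tested with edgeR 4.0.16 in R 4.3.3 (quasi-likelihood, TMM, filterByExpr, Benjamini-Hochberg over all genes, threshold 0.05). A model of injection and stage covered 16264 genes with 3 residual degrees of freedom, and a model of 4 groups (stage by Sm or mCherry) covered 16867 genes with 4. The code was tested on simulated data. Alternatives were DESeq2 1.42.0, limma 3.58.1 on log2(cRPKM + 0.1) and on log2(cRPKM + 1) for genes with at least 0.5 cRPKM in 2 libraries, DESeq2 size factors, library totals, no filter, at least 50 reads in 4 libraries, and leaving out each library. Single libraries were compared with exact conditional binomial intervals at 95% confidence, which cover counting error only. A floor of 3 reads was 0.05 to 0.076 CPM. Shared 50-base words were counted among the transcripts of the GRCm38 reference, whose gene models may differ from those behind the counts. Promoters were read from RefSeq GRCm38.p6.

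The proteasome genes were taken by symbol, and the gene lists were written with earlier results of these data known. Values in all libraries are given for the highest, the most fallen and the most risen gene of each class, the catalytic, immunoproteasome and tissue-specific genes, and any gene called for injection or stage dependence. Pathway genes are named where called with at least a 4-fold change, with Nfe2l1, Pomp, Psme1 to Psme4 and Psmf1.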

Additional observations from a re-analysis of the deposited data

How the results depend on the processing

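Under the edgeR scalings and filters, DESeq2 and limma, 5 to 8 proteasome genes were higher and 23 to 25 lower at the 2-cell stage. Leaving out 1 library gave 4 to 6 higher and 25 to 27 lower, with 0 calls for injection, and 0 for Sm mRNA at either stage and for the stage difference wherever the mCherry library they need was kept (without it they could not be fitted). DESeq2 called 2 genes at the 1-cell stage against 0 with edgeR and limma, and the cause was not tested. Psmd7, not called, (0.07), ranged from −0.057 to 0.126 when 1 library was left out and lay below 0 without the 1-cell Snrpd2 library (−0.057), the 1-cell library with both (−0.026) or the 2-cell Snrpd2 library (−0.055), and limma called it (0.32 and 0.31). Library totals gave 8 higher and 23 lower and moved the median of all genes from 0.15 to 0.41. Psmd14 was called (−0.70) without either Snrpd2 library. The stage fit already pairs the stages of each injection through its injection term. No other pairing was made, since each condition had 1 library and the labels carry no replicate numbers. Depth limits Psma5, Psma8, Psmb8, Psmb10, Psmb11 and Psmd13.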
